A study of Mus musculus with 5 samples.

Results

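The peaks described here are the narrow H3K27ac peaks that sit at the end of a single protein-coding gene. H3K27ac is acetylation of lysine 27 of histone H3. A peak was a member of this set when it lay on chromosomes 1 to 19, was under 4000 bp wide, and had its summit within 1 kb of the start or end coordinate of exactly 1 protein-coding gene of the GRCm38 RefSeq annotation. Of 22948 deposited peaks, 5895 met this rule, which is 25.7% of the list (95% Wilson interval 25.1% to 26.3%). They lay at 5050 of 20665 autosomal protein-coding genes. Height and significance played no part in the choice.

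The cells were sorted from mouse bone marrow as CD45.2+, lineage-, Sca1+ and Kit+, the gate of blood stem cells and their multipotent progeny (HSC/MPP). All libraries carried the Mll3/4 deletion: 4 libraries were made with an H3K27ac antibody by ChIPmentation, in which the Tn5 transposase tags the precipitated chromatin, and 1 was input chromatin. No library of undeleted cells was used here, and the labels used here give no Cre driver, age or number of animals. A single list was deposited for the 4 libraries. Its file name speaks of an overlap set, and how the libraries were combined is not given in the sources used here, so whether a signal value stands for pooled reads cannot be told. No value has a replicate error, and the read depth is unknown. Intervals on shares cover counting error over peaks or genes only. Signal values, −log10 p and −log10 q of single peaks are the authors'.

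Active promoters carry H3K27ac, written by the acetyltransferases p300 and CBP, on the nucleosomes that flank the nucleosome-depleted start of transcription. Promoters of genes that most cells use are often CpG islands, stretches where the dinucleotide CG has escaped the loss seen in the rest of the genome, while many lineage genes start from CpG-poor sequence and draw on distant enhancers. Mll3 and Mll4 (genes Kmt2c and Kmt2d) are histone H3 lysine 4 methyltransferases known mainly for their work at enhancers.

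The promoters below lay beside the summits, and no printed stretch held its summit. At Csf2ra the printed stretch lay outside the peak. Srsf5, Napa and Amn1 had the highest signal values among members at a gene start with a RefSeq promoter window near the summit. Runx1, Csf2ra and Tfrc were chosen from the blood gene lists by the same rule. Counting all members of those lists, Ccr7 (6.92) ranked above Tfrc (5.84) and is not printed. Stt3a carried the strongest pair of peaks on opposite sides of a start. Sirt4 ranked between Napa and Amn1 and is left out, since its nearest window start was over 1 kb from the summit, a limit set after seeing the data. Each window holds 300 bases of RefSeq sequence (GRCm38.p6), from 250 before the start to 50 after it, 5′ to 3′ in the direction of transcription. The windows are Srsf5 at chr12:80945249-80945548 (plus strand), Napa at chr7:16098330-16098629 (plus), Amn1 at chr6:149188646-149188945 (minus), Runx1 at chr16:92826025-92826324 (minus), Csf2ra at chr19:61228369-61228668 (minus), Tfrc at chr16:32608872-32609171 (plus) and Stt3a at chr9:36767573-36767872 (minus). Capitals mark matches, on either strand, to any of the 12 short motifs whose letters are given with their counts further on.
Srsf5: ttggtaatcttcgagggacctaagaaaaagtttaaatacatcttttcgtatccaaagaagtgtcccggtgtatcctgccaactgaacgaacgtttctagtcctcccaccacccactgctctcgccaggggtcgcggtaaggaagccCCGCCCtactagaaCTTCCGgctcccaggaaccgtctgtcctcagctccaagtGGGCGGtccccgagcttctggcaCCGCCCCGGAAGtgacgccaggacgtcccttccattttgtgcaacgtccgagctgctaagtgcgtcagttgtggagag
Napa: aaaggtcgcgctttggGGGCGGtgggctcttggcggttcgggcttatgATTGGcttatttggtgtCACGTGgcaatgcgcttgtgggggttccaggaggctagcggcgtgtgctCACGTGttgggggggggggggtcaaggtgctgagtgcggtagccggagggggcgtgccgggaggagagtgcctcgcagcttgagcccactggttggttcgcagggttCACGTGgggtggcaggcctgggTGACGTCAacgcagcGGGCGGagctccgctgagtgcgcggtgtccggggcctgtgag
Amn1: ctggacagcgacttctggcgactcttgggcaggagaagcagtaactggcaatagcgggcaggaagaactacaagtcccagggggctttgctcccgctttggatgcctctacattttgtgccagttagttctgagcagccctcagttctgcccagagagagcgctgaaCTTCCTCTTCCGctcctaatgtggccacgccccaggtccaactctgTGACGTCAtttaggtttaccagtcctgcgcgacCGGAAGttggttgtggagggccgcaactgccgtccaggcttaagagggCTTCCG
Runx1: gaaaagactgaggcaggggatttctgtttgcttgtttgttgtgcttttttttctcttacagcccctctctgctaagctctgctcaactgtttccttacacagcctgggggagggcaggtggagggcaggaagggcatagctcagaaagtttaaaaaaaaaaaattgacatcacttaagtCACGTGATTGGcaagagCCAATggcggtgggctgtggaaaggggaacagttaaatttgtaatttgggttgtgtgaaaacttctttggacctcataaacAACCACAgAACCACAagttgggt
Csf2ra: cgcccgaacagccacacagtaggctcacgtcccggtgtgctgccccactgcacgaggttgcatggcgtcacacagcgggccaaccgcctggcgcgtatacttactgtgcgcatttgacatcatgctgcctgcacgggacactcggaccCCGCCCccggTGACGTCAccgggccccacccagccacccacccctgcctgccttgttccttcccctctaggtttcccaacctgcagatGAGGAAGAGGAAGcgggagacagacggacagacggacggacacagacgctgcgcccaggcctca
Tfrc: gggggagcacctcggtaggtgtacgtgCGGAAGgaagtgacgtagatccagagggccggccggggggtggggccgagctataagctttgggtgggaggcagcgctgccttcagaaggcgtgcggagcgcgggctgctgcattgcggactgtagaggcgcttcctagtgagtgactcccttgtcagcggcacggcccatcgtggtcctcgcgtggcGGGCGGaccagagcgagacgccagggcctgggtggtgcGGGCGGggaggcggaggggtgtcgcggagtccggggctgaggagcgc
Stt3a: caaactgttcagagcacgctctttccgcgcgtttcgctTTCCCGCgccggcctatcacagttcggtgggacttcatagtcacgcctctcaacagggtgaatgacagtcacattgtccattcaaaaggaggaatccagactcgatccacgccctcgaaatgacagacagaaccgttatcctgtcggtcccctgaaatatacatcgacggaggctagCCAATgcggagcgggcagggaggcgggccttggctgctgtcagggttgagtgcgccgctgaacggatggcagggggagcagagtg

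The Srsf5 window held 3 GC boxes and 2 ETS motifs, and the summit lay 266 bp downstream of its start. In the Napa window 3 E-boxes and a CRE, whose palindromic letters match on both strands, came before the start, and the summit lay 311 bp downstream. Amn1 had a CRE, 3 ETS motifs and a PU.1 motif. The Runx1 window was poor in CpG, with 2 CG dinucleotides and an observed over expected ratio of 0.137. It held 2 RUNX motifs just downstream of its start, an E-box and 2 CCAAT boxes, and no GC box letters. Csf2ra had a CRE and 2 overlapping PU.1 motifs next to its start, and its ratio was 0.738. Tfrc, the transferrin receptor, held the most CG dinucleotides of the windows printed here, 30, with a ratio of 0.906. These matches are descriptions of the letters and not binding sites.

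Members had a median signal value of 4.19 (quartiles 3.19 to 5.78), which is the enrichment of the H3K27ac pileup over the background at the summit. Their median −log10 p was 9.09 and their median width 914 bp (575 to 1456 bp). The signal value ran from 1.84 to 22.2, and 220 members reached 10. The 17053 other peaks of the list had a median signal value of 3.03 and a median width of 832 bp. The lead of 1.16 in median signal value shrank to 0.276 when only peaks whose −log10 q reached 5 were kept. A q-value above 0.05 was attached to 7.72% of members (7.06% to 8.43%) and to 25.8% of the other peaks (25.2% to 26.5%).

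Peaks in like places gave a scale for these values. The 1260 narrow peaks at ends of 2 or more genes had a median signal value of 4.50 and a width of 968 bp. The 7304 narrow peaks inside a gene but off its ends were weaker, at 2.94, and 802 bp wide. Signal value and width moved together among members, with a Spearman rho of 0.727 over 5895 peaks, which share libraries and background. At equal signal value members were narrower than peaks inside genes and close to those at several gene ends. Between signal values of 4 and 6 the median width was 1081 bp for members, 1104 bp at ends of several genes and 1699 bp inside genes. From a signal value of 10 on, the medians were 2039.5 bp, 2149.5 bp and 2749 bp.

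**Figure D1:**
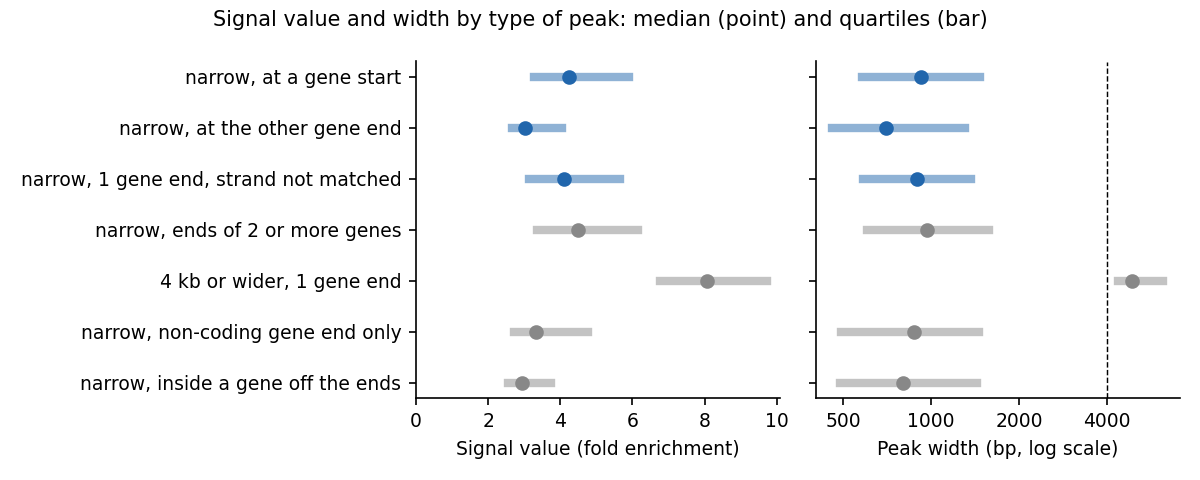
Median (points) and quartiles (bars) of signal value (left, enrichment over background) and width (right, bp, log scale) for 7 kinds of peaks; blue marks the 5895 members split by gene end, grey the other peaks, and the dashed line the 4000 bp limit. Members at a start (median 4.25) stood above those at the other end (3.03) and above narrow peaks inside genes (2.94).

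The 10 members of highest signal value lay at genes of varied function. The highest signal value, 22.2, belonged to the peak chr12:80944903-80946817 at Srsf5, which encodes a serine and arginine rich splicing factor. Efcab2, an EF-hand protein gene, followed with 19.9 at chr1:178405201-178406942. Rps14, a protein of the small ribosomal subunit, had 18.9, and Clk1, a kinase that phosphorylates splicing factors, had 18.5. Slc35e2, a putative solute carrier, had 17.8. These 5 members also had the highest −log10 p of the set, from 92.4 to 127. Napa, the adaptor that recycles membrane fusion complexes, had 17.3. The mitochondrial sirtuin Sirt4 had 16.9, the gene of mitotic exit Amn1 16.5, the splicing regulator Tra2a 16.4 and the ubiquinone biosynthesis enzyme Coq7 16.4. Widths in these 10 members ran from 1503 to 2765 bp.

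Peaks on both sides of the limits of the rule are given once. The widest member, 3997 bp, lay at Ppp1r15b, a regulatory subunit of a protein phosphatase, with a signal value of 8.45. Atp13a3, a transport ATPase, came next with 3986 bp and 6.27, followed by Traf3ip3 (3978 bp, 9.92), Plekho2 (3967 bp, 4.62) and Tut7, a terminal uridylyl transferase (3954 bp, 8.85). Just past the limit, peaks of 4002 bp at Atp6v1g2 and 4014 bp at Parp14 had signal values of 4.53 and 9.92. A summit just inside the distance limit lay 997 bp from Dynlt1b (2.48), and those just outside lay 1001 bp from Syne3 (3.58) and 1002 bp from Ackr2 (2.56). At the low end of significance were members at Ttc38, Gm9639, Neurl2, S1pr2 and Prxl2a. Their signal values lay between 1.88 and 2.06, and all 5 had a −log10 q of 0.0621, far from a q-value of 0.05.

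The annotation table gives no strand. Strand came from the RefSeq promoter windows, which matched 4075 of the 5050 member genes (80.7%). Of the 4766 members with strand, 4536 lay at the start of their gene, or 95.2% (94.5% to 95.7%), and 230 at the other end. The 1129 members at genes without a window could not be assigned to an end. Start members had a median signal value of 4.25 and a width of 924.5 bp. At the other end the medians were 3.03 and 703 bp, and for unassigned members 4.10 and 898 bp.

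Summits at gene starts avoided the start itself. Only 3.22% (2.74% to 3.77%) of the 4536 start members had their summit within 100 bp of it, while 66.5% (65.1% to 67.8%) lay 200 to 600 bp away on either side. Downstream summits made up 73.0% (71.6% to 74.2%). The fullest 50 bp bin downstream was 300 to 350 bp, with 339 summits, the fullest upstream -450 to -400 bp, with 137, and the emptiest near the start -100 to -50 bp, with 28. Measured from the nearest start in the promoter table instead of the annotated gene start, 66.7% were downstream and 3.88% within 100 bp. The rule leaves out upstream peaks that also sit at a neighbouring gene, so the sides were not sampled alike.

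Most start members did not reach the annotated gene start. That start was the promoter-table start nearest the summit at 53.3% of the 3938 start member genes, and coverage of other starts was not counted. The peak interval covered the annotated start in 37.9% of start members. This share rose from 13.1% in the lowest quartile group by signal value to 66.6% in the highest. Median width rose from 491 to 1688 bp over the same groups. The share of downstream summits changed little over these groups, from 70.5% to 75.04%. Downstream members lay a median of 421 bp from the start and were 989 bp wide. Upstream members lay 413 bp away and were 757 bp wide, with signal values of 4.28 and 4.13 for the downstream and upstream side. An end of a non-coding gene lay within 1 kb of 20.1% (17.98% to 22.5%) of upstream summits and 14.96% (13.8% to 16.2%) of downstream ones.

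**Figure D2:**
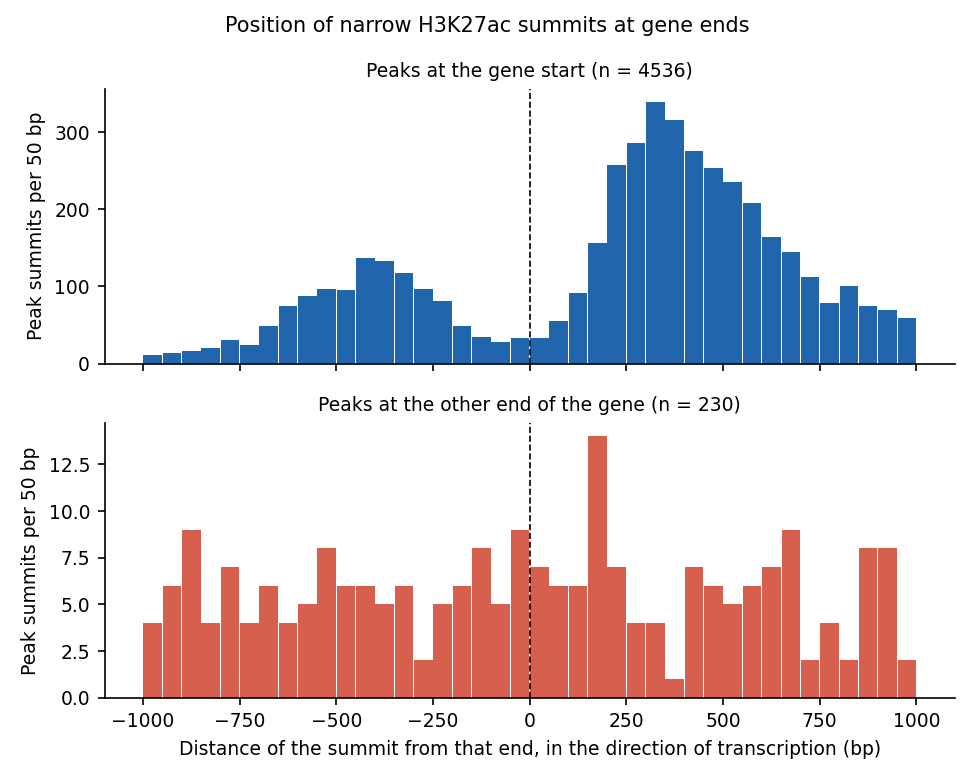
Number of peak summits per 50 bp (vertical axis) by distance from the gene start (top, 4536 members) or from the other gene end (bottom, 230 members), in bp in the direction of transcription, with the end at the dashed line. Summits at starts formed 2 humps around a gap, the larger at 300 to 350 bp downstream, and summits at the other end formed no such gap.

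Members at the other end of the gene showed no such gap. Of these 230, 50% (43.6% to 56.4%) lay beyond the gene, 11.7% within 100 bp of the end and 36.1% at 200 to 600 bp. The gene carried a start member too in 84 cases, was shorter than 2 kb in 31, and had a promoter-table start of some gene within 1 kb of the summit in 32. The strongest were at the linker histone genes H1f5 (13.4) and H1f2 (12.7), short genes with close relatives among which reads could be divided. Tmem107, a protein of the cilium, followed with 12.4 at chr11:69072786-69074293. An end of a non-coding gene lay within 1 kb of the Tmem107 summit, as for 17 of the 230 members at the other end. These 3 were chosen after their values were seen.

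Within the 1 kb window, a pair of members on opposite sides of the start was the usual form where a gene had more than 1. Of the member genes, 4246 had 1 member, 766 had 2, 35 had 3 and 3 had 4, so 15.9% (14.9% to 17.0%) had several. It fell to 7.43% when a −log10 q of 5 was required, and to 6.08% for summits within 0.5 kb. Exactly 2 start members were found at 590 genes, and in 556 of them, or 94.2% (92.1% to 95.8%), 1 lay upstream and 1 downstream. Their summits were a median of 968.5 bp apart (quartiles 818 to 1188 bp), with a gap of 333.5 bp between the peaks, and the start lay in that gap in 80.0% of pairs. Since peaks in the list do not overlap and the window reaches 1 kb to each side, the spacing could not exceed 2 kb. Little room was left for 2 members on 1 side. The share of pairs on opposite sides was 100% with a 0.5 kb window and 74.7% with 2.5 kb, so it was partly set by the window.

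Within a pair the signal values of the sides were hardly related. The median signal value was 3.85 upstream and 4.37 downstream. The downstream peak was the stronger in 58.3% (54.1% to 62.3%) of pairs, and the median ratio of downstream over upstream was 1.12 (quartiles 0.813 to 1.56). The values of a pair lay within 1.5-fold of each other in 57.6%. Spearman's rho between the sides was 0.0693 over 556 pairs, all from the same list. Only starts whose sides were called as separate members entered, so the relation at other starts was not measured.

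The strongest pair was at Stt3a, the catalytic subunit of an oligosaccharyltransferase that glycosylates proteins in the endoplasmic reticulum. Its upstream peak chr9:36767839-36769087 had a signal value of 15.4, with the summit 684 bp before the start, and its downstream peak chr9:36766281-36767659 had 8.85 at 280 bp. Ptma, encoding the chromatin protein prothymosin, had 14.4 upstream and 7.47 downstream. Rbm39, a splicing factor gene, had the reverse order, 7.87 upstream and 13.9 downstream. The most unequal pairs were at Srd5a3, with 2.05 upstream and 9.73 downstream, and at Sugt1, with 10.3 and 2.32. These 5 were picked as the extremes of the sum and the ratio after their values were seen.

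**Figure D3:**
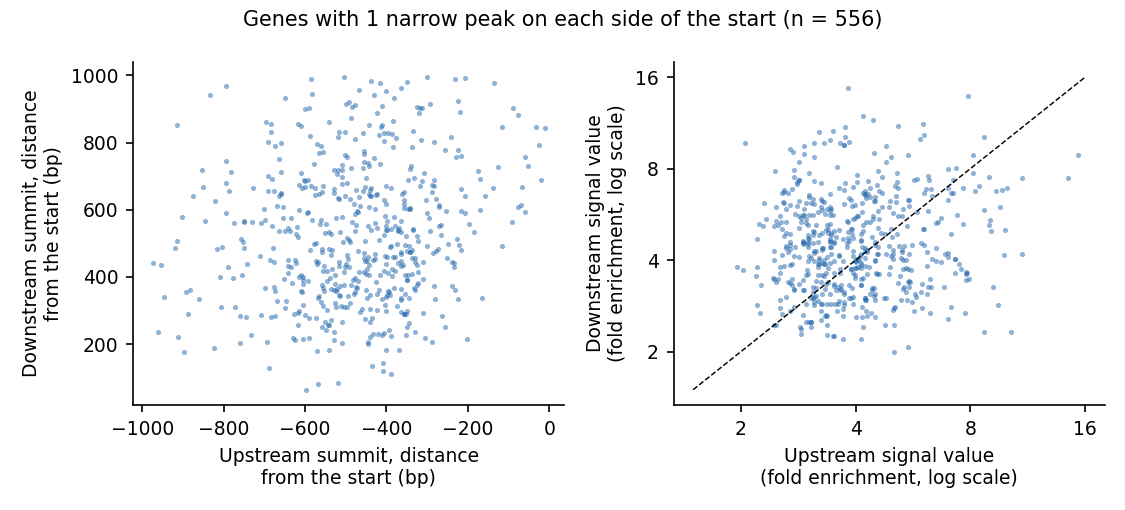
The 556 genes with 1 member on each side of the start, 1 point per gene: distance of the upstream and downstream summits from the start (left, bp) and their signal values (right, log axes, dashed line at equality). Distances centred on 465 bp upstream and 505.5 bp downstream, and the signal values scattered widely on both sides of the line.

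Ranked by number of members and then by signal value, the 5 leading genes had members at both ends. Lyrm7, a mitochondrial assembly factor gene, had 2 members at its start (3.49 and 3.98) and 2 at its other end (3.50 and 2.87). St3gal1, a sialyltransferase gene, had 4 members between 2.26 and 4.62, and Stard3nl, a late endosome protein gene, had 4 between 2.12 and 5.02. Mynn, a zinc finger gene, combined a strong downstream member (9.73) with a weak upstream one (3.12) and one at its other end (2.63). Zmat3, an RNA-binding zinc finger gene, had 9.61, 5.11 and 2.60.

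The deleted genes were looked at next. Kmt2c had 2 members around its start, 444 bp wide with a signal value of 5.17 at chr5:25499110-25499553 on the upstream side, and 1361 bp wide with 3.36 at chr5:25497314-25498674 on the downstream side. Kmt2d had no member. Its only peak at an end, chr15:98830732-98832470 with 5.60, lay at the end opposite its start and was shared with the end of another gene. Whether these cells lack the targeted exons cannot be read from peaks.

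Genes of general cell function carried members far more often than genes in total. Over all autosomal protein-coding genes, 24.4% had a member. A further 9.45% had only a peak shared with a neighbour's end, 0.503% only a peak of 4 kb or wider at 1 gene end, 3.03% only a peak that reached within 1 kb with its summit farther off, and 62.6% no peak within 1 kb of an end. In 10 lists of cell-wide functions, 156 of 249 autosomal genes had a member, or 62.7% (56.5% to 68.4%). The lists ranged from 43.3% for DNA repair to 80.0% for vesicle coats. The strongest member per gene had a median of 4.41 over all 5050 member genes, and list medians are read against it.

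In transcription, 17 of 29 genes of RNA polymerase II and its general factors had a member, with a median of 4.22. The strongest were Taf7 (15.3) and Taf4 (7.74), subunits of TFIID, and Gtf2b (7.38), the factor TFIIB. Among Mediator subunits, the bridge between activators and the polymerase, 18 of 29 had a member (median 4.21). Med7 (10.5) and Med16 (8.49) led, followed by Med15 and Med30, tied at 7.07.

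In protein synthesis and transport, 14 of 20 cytosolic aminoacyl-tRNA synthetases had a member (median 4.91), and none was without a peak near an end. Rars (7.77), Nars (7.16) and Dars (6.79), which charge tRNAs with arginine, asparagine and aspartate, led them. The nuclear pore had 15 of 27 (median 4.71), led by Ranbp2 (15.6), a protein of the cytoplasmic filaments, Nup214 (11.7) and Nup153 (6.73). Vesicle coats and ER to Golgi traffic had 16 of 20 (median 5.37), led by the small GTPases Arf1 (11.7), Arf4 (10.2) and Sar1a (8.999).

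In turnover and repair, 16 of 25 autophagy genes had a member. Their median of 5.83 was the highest of the cell-wide lists, with Atg16l1 (8.79), Map1lc3b (8.39) and the cargo receptor Sqstm1 (8.36) in front. Ubiquitin ligases and cullins had 14 of 21 (median 4.04), led by Fbxw7 (7.96), Cblb (6.79) and Cul5 (6.18). DNA repair had 13 of 30 (median 4.19), led by Ercc3 (7.19) and Brca2 (6.27). With a −log10 q of at least 5 it had 7 of 30, or 23.3% (11.8% to 40.9%). That interval holds the 15.04% of all genes at the same limit. Another 11 repair genes, Atm and Brca1 (picked afterwards) among them, had only a peak shared with a neighbour's end.

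In division and shape, 17 of 25 mitosis and kinetochore genes had a member (median 4.41), led by Knl1 (8.30), Cenpc1 (7.28) and Cenpa (7.28), the histone variant of centromeres. Actin assembly had 17 of 24 (median 4.83), led by the actin-binding Cap1 (9.28), the Arp2/3 activator Wasf2 (8.42) and the GTPase Cdc42 (8.08).

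In 5 lists of blood lineage genes, 114 genes in all, 18 had a member, or 15.8% (10.2% to 23.6%), against 24.4% of all autosomal coding genes, and 76 had no peak near an end. Beyond the 3 strongest members of each list, the genes with a member and those with another kind of peak were named after their values were seen. The early B-cell list had 33.3% (17.97% to 53.3%) and the other 4 lists between 8% and 16%, and each of these 5 intervals holds 24.4%. When the list was limited to a −log10 q from 5 up, the early B-cell share was 12.5% (4.34% to 31.0%), below the 15.04% of all genes. Among stem cell regulators, 4 of 25 had a member: the transcription factors Runx1 (10.1), Myb (5.39) and Lyl1 (2.72), and the receptor Kit (4.68). Bmi1 and Etv6 had only a shared peak, and a peak reached Meis1, Hoxa9 and Hoxa10. Genes without a peak near an end included Cd34, Erg, Fli1, Gata2, Gfi1b, Hlf, Ldb1, Lmo2, Ly6a, Mecom, Mycn, Prdm16, Procr, Tal1 and Tek.

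At early B-cell genes, wide peaks were nearly as frequent as members. Of 24 genes, 8 had a member, with a median of 3.32, below the 4.41 of all member genes. They included Cd79a (4.40), a chain of the B-cell receptor, the factors Tcf3 (4.68), Irf4 (3.46), Lef1 (3.18) and Ikzf1 (2.84), and the recombination genes Rag1 (2.69) and Dntt (2.38). Another 7, Pax5, Foxo1, Il7r, Cd79b, Vpreb1, Igll1 and Bach2, had a peak of 4 kb or wider and no member. Peaks reached Ebf1, Blnk, Rag2, Pou2af1 and Syk, and none was listed near Ikzf3, Blk, Cd22 and Ms4a1. Of all peaks at exactly 1 gene end, 38.9% (20.3% to 61.4%) of the 18 at B-cell genes were 4 kb or wider, against 2.19% (0.853% to 5.48%) of 183 at the cell-wide lists and 2.01% (1.69% to 2.40%) of 6016 in all.

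Myeloid genes had 2 members in 25: Csf2ra (9.12), the receptor chain for GM-CSF, and the factor Klf4 (4.28). Peaks reached Spi1 and Gfi1. The genes without a peak near an end were Cd33, Cebpa, Cebpb, Cebpd, Cebpe, Csf1r, Csf2rb, Csf3r, Ctsg, Elane, Fcer1g, Fcgr3, Irf8, Itgam, Ly6c2, Ly6g, Lyz2, Mpo, Ms4a3, Prtn3 and Tyrobp. T-cell genes had 2 in 24, Ccr7 (6.92) and Cd3d (4.90), and Zap70 had only a wide peak. Genes without a peak near an end included Cd3e, Cd3g, Cd247, Cd4, Cd8a, Cd8b1, Cd5, Cd7, Cd28, Lck, Lat, Gata3, Tcf7, Bcl11b, Notch1, Notch3, Ptcra, Thy1, Ccr9 and Themis.

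Erythroid and platelet genes had 2 in 18, Tfrc (5.84) and the globin gene Hbb-bt (3.92), whose close copies could divide its reads. Genes without a peak near an end included Klf1, Epor, Hba-a1, Slc4a1, Ank1, Epb42, Nfe2, Gfi1b, Pf4, Itga2b, Gp1ba, Gp9, Vwf and Ppbp. Of 29 genes of other tissues, such as liver, heart and brain, only Mbp, which encodes myelin basic protein, had a member (5.08), and the other 28 had no peak near an end.

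**Figure D4:**
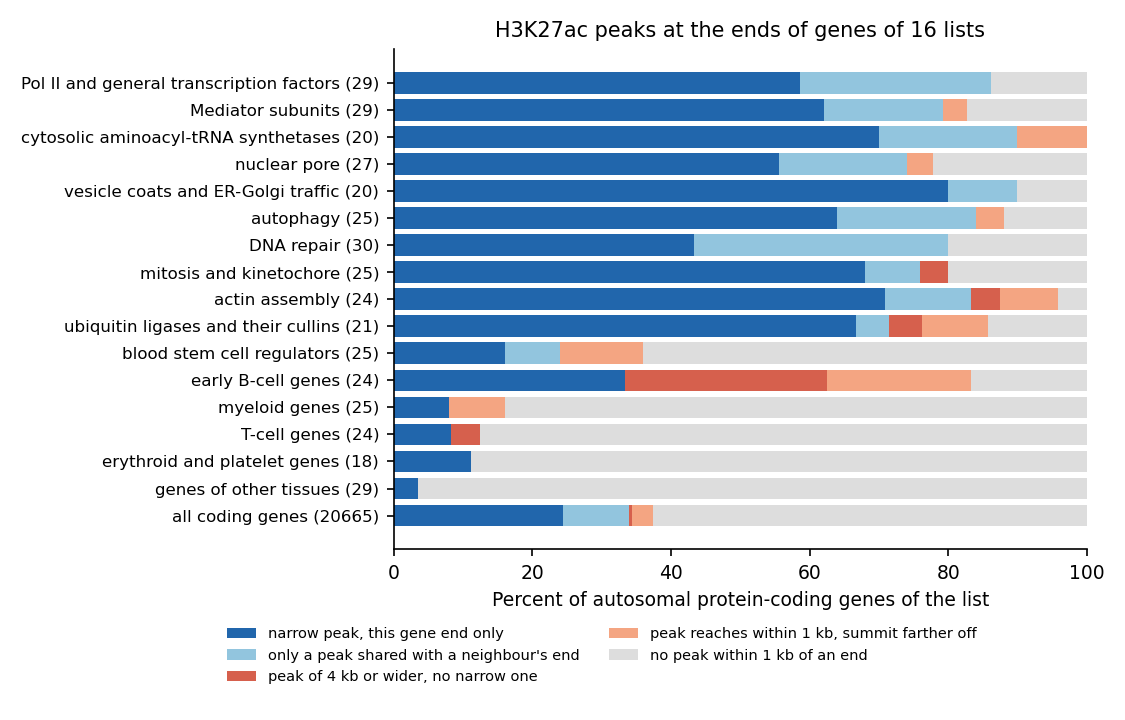
Share of autosomal protein-coding genes (horizontal axis, percent) with each kind of H3K27ac peak at an end, for 16 gene lists and all 20665 genes (bottom); the number of genes is in brackets. The dark blue share, genes with a member, ran from 43.3% to 80.0% in the 10 cell-wide lists and from 8% to 33.3% in the 5 blood lists, and red, a wide peak and no member, stood out in the early B-cell list.

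The labelled cell type was checked on its defining genes. For scale, 24.4% of all autosomal protein-coding genes had a member and 62.6% had no peak within 1 kb of an end. The marker counts are small and were not tested against these shares. Of 10 genes that mark or define HSC/MPP, 4 had a member: Kit (4.68), Flt3 (6.58), Slamf1 (3.21) and Cd48 (2.45). A peak reached Ptprc, which encodes CD45, and Meis1, and none was listed near Ly6a, which encodes Sca1, or near Cd34, Hlf and Mecom. Of 7 B-lineage markers, 3 had a member, Cd79a (4.40) and Ptprcap (3.26) among them, and 6 had some peak near an end. None of 6 myeloid, 5 T-lineage, 2 megakaryocyte and 4 stromal markers had a peak near an end, and 1 of 4 erythroid markers did. In a bulk list a mark in few cells and a weak mark in all cells cannot be told apart, and the part of B-lineage cells in these values was not tested.

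Member genes were longer than genes without a peak near an end and had more distal peaks around them. Their median length was 24.2 kb, against 14.4 kb for genes without a peak and 17.5 kb for all. At least 1 distal peak, away from all coding gene ends, lay within 50 kb of 62.5% (61.2% to 63.9%) of member genes, 35.2% (34.4% to 36.0%) of genes without a peak and 45.9% of all genes. The share did not follow the height of the member: from the lowest to the highest quartile group by signal value it was 62.2%, 62.0%, 65.1% and 60.8%. Wide-peak genes stood higher, at 85.6% (77.6% to 91.1%). Genes that a peak only reached, with its summit farther off, had 91.05% (88.6% to 93.0%). That peak is itself a distal peak unless its summit lay at another coding gene's end. The share of these genes was therefore largely set by their definition. Genes with only a shared peak had 56.8% (54.6% to 59.0%). Gramd4, a gene of 79.9 kb with a member of 2.34, had 34 distal peaks, the most of any member gene, and was named after its value was seen. Longer genes offer more room for distal peaks, and length was not held fixed here.

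Members were spread over all 19 autosomes. The share of coding genes with a member ran from 17.4% on chromosome 7 to 29.4% on another autosome, and the median signal value of members from 3.88 to 4.37.

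Promoters with a member at the start were rich in CpG. Over 16457 autosomal coding genes with a RefSeq window, the median observed over expected CpG ratio was 0.807 (quartiles 0.646 to 0.937) for the 3938 genes with a start member, 0.339 (0.146 to 0.695) for the 10130 genes without a peak and 0.597 for all. A ratio of 0.6 or more was found in 79.7% (78.4% to 80.9%), 31.8% (30.9% to 32.7%) and 49.8%. Genes with only a shared peak had 83.2% (81.4% to 85.0%), and the 137 genes whose only assigned members lay at the other end had 56.9% (48.6% to 64.9%). Among start members the share rose with signal value, from 75.4% (72.6% to 78.0%) in the lowest quartile group to 83.0% (80.6% to 85.3%) in the highest.

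**Figure D5:**
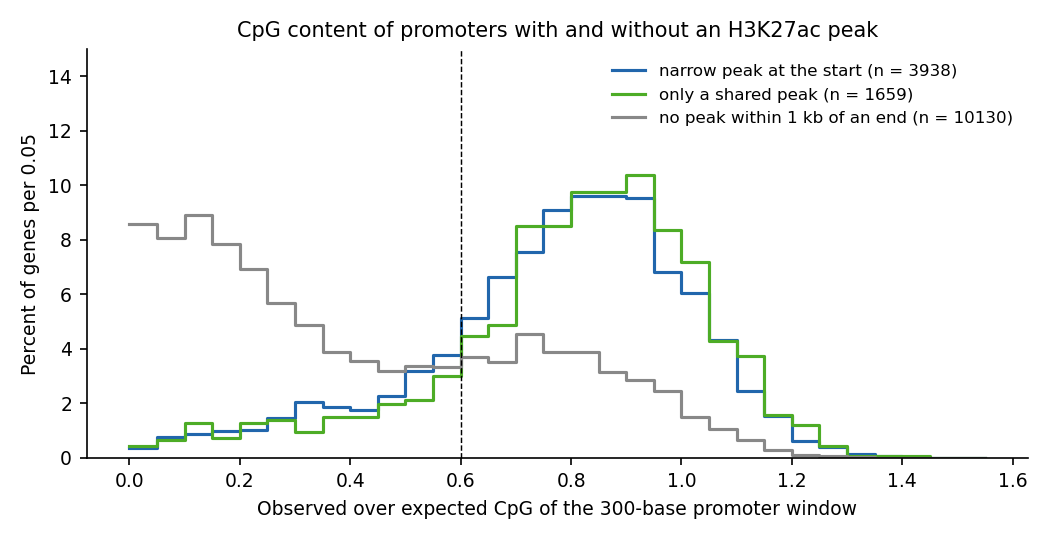
Percent of genes (vertical axis, per 0.05 step) by observed over expected CpG of the 300-base promoter window, for genes with a member at the start (blue, 3938), with only a shared peak (green, 1659) and without a peak within 1 kb of an end (grey, 10130); the dashed line marks 0.6. The blue and green curves nearly coincide to the right of the line, and most grey promoters lie to its left.

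CpG-poor promoters with a member were fewer but not much weaker. The 799 such genes, with a ratio under 0.6, had a median of 4.19 for their strongest start member, against 4.56 for the 3139 at or above it. Their summits lay downstream of the start more often, in 79.8% (77.0% to 82.4%) against 71.3% (69.9% to 72.8%). The strongest were at Amn1 (16.5), the class I histocompatibility gene H2-Q7 (14.5), the antiviral helicase gene Ddx60 (13.4), the plasma cell and stress factor Xbp1 (12.8), the AP-1 factor Jun (12.5) and H2-Q4 (12.3). The H2-Q genes have close copies among which reads could be divided, and these 6 were named after their values were seen.

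Of 12 motifs searched on both strands of the windows, the GC box and the ETS core differed most from genes without a peak in percentage points. The GC box of SP and KLF factors (GGGCGG) was in 68.7% (67.2% to 70.1%) of promoters with a start member, 35.4% (34.5% to 36.4%) of those without a peak and 47.3% of all. The core of ETS factors (CGGAAG) was in 36.3% (34.8% to 37.8%), 12.4% (11.8% to 13.1%) and 21.9%. The TATA box (TATAAA) went the other way, with 6.88% (6.13% to 7.72%), 17.7% (16.9% to 18.4%) and 13.5%. By ratio the CRE (TGACGTC), with 7.67% against 2.01%, and the NRF1 motif (GCATGCG), with 8.18% against 2.60%, differed more. The CCAAT box (CCAAT) was alike in all, at 39.5%, 39.0% and 39.1%.

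These motifs differ in their content of CG, so promoters with a CpG ratio of at least 0.6 were compared on their own, an alternative chosen after seeing the data. There the GC box was in 76.0% (74.5% to 77.4%) of start-member promoters and 74.6% (73.0% to 76.0%) of those without a peak, and TATA in 6.08% and 5.80%. The CCAAT box was in 38.9% (37.2% to 40.6%) and 35.8% (34.2% to 37.5%). The ETS core still differed, with 40.1% (38.4% to 41.8%) against 23.9% (22.5% to 25.4%). So did the CRE of CREB and ATF factors, with 8.57% (7.64% to 9.60%) against 3.72% (3.12% to 4.44%), the NRF1 motif, with 9.43% against 5.71%, and the YY1 motif (AAGATGG), with 8.63% against 4.50%.

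In relative terms, the CRE changed most with the height of the member. It was in 3.76% (2.74% to 5.14%), 5.69%, 7.72% and 13.5% (11.5% to 15.8%) of promoters from the lowest to the highest quartile group by signal value, against 4.07% of all promoters. With a CpG ratio of at least 0.6 the lowest and highest groups had 4.04% (2.84% to 5.71%) and 14.3% (12.1% to 16.9%). The ETS core rose from 31.7% (28.8% to 34.6%) to 41.8% (38.8% to 44.9%). The GC box was at 68.0% and 69.3%, and YY1 at 9.24% (7.59% to 11.2%) and 7.21% (5.75% to 8.99%). The Napa and Amn1 windows printed above hold the CRE letters, and the Srsf5 window does not.

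Motifs of 3 factors of blood development were no more common at start members than at genes without a peak, over all promoters. The PU.1 motif (GAGGAAG) was in 13.2% of promoters with a start member and 13.2% of those without a peak. The RUNX motif (TGTGGTT) was in 3.403% (2.88% to 4.02%) and 5.88% (5.44% to 6.36%), and the GATA motif (AGATAA) in 5.36% (4.70% to 6.11%) and 12.4% (11.8% to 13.1%). With a CpG ratio of at least 0.6 PU.1 was at 11.9% (10.8% to 13.0%) and 10.5% (9.51% to 11.6%), and at 9.42% (7.52% to 11.7%) in the lowest and 13.9% (11.7% to 16.5%) in the highest quartile group by signal value. RUNX was at 2.80% and 2.76% and GATA at 4.14% and 4.35%. The E-box (CACGTG) was in 11.3% and 6.37%, and in 12.3% and 11.4% with that ratio. The E2F motif (GCGGGAA) was in 9.19% and 4.34%, and in 10.4% and 10.3% with that ratio.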

How the data were processed

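H3K27ac was measured by ChIPmentation, with 4 libraries and 1 input library per the labels. The authors deposited 1 peak list for all libraries; BWA, MACS2 and the build mm10 are named in the submitters' processing notes, with versions, parameters and filters not given in the sources used here. Per position it gives the deposited score, the authors' signal value, read as a ratio of enrichment over background, and the authors' −log10 p and −log10 q values. No columns of single libraries exist in it, so there are no tests.

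Gene ends, strands and promoter windows came from RefSeq (GRCm38.p6). Counts, medians, quartiles and 95% Wilson intervals were computed with Python 3.11.15, pandas 2.3.3 and scipy 1.17.1. The membership rule was tested on simulated data. The members and gene lists were chosen with earlier results of these data known. Named genes are those at the 10 members of highest signal value, the 5 of highest and lowest −log10 p, the 5 widest, up to 5 with several members, 3 per list, the blood list genes without a peak, Kmt2c, Kmt2d and 2 on each side of a limit; some of these are not reported here, and genes outside the rule are marked as chosen after their values were seen. Alternatives changed the peak threshold, the window, the width limit and the genes counted.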

Additional observations from a re-analysis of the deposited data

How the results depend on the processing

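No paired analysis was possible because 1 peak list was deposited for all libraries, and for the same reason single libraries could not be left out. A median or share was counted as moved when an alternative took it outside its counting interval, which is narrow at these numbers, and a list count when it changed by over 1.5 times. Of 165 values recomputed, 106 were counted as not moved, and 2 motif differences reversed. The limits given here do not cover the 12 motif differences, which are among the 165.

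With −log10 q of at least 5, members were 40.3% of the remaining peaks, at 15.0399% of genes, with a median signal value of 5.48 and width of 1300 bp. Their lead over other peaks in median signal value shrank from 1.16 to 0.276. The share at a start was 97.7%, of genes with several members 7.43% and of downstream summits 74.6%. Members were then found at 9 polymerase, 9 mitosis, 8 ubiquitin, 7 DNA repair, 3 B-cell and 1 erythroid or platelet genes. Where only peaks with a q-value up to 0.05 were kept, the share of members was 30.1%, that of genes 22.9%, of starts 95.9% and of genes with several members 14.3%; the median signal value was 4.37, the lead 0.916 and the width 973 bp.

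With summits within 0.5 kb, members were 17.96% of peaks, at 18.8% of genes, with a median of 4.28, several at 6.08% of genes and 100% of pairs on opposite sides. The counts were 8 DNA repair, 7 ubiquitin, 5 B-cell, 1 T-cell and 1 erythroid or platelet gene, and 0 myeloid genes and 0 of other tissues. Within 2.5 kb, members were 29.2% of peaks, at 25.5% of genes, with a median of 4.07, a lead of 1.04, 91.3% at a start, several at 23.4% of genes, 75.1% of summits downstream, 74.7% of pairs on opposite sides and 4 myeloid genes. Without a width limit, 15 B-cell genes had a member in place of 8. With all annotated genes counted, members were 21.6% of peaks, at 20.8% of genes, with a lead of 1.04, several at 14.4% of genes and 1 myeloid gene.

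Downstream summits fell from 73.0% to 66.7% when the nearest promoter-table start was used. The median CpG measure of start-member promoters over that of genes without a peak was 2.38 times as a ratio of observed over expected and 3.67 times as CG dinucleotides per 100 bases. Among promoters with a CpG ratio of at least 0.6, the TATA difference in percentage points went from -10.8 to 0.281 and the RUNX difference from -2.48 to 0.0412. The cause was not tested in any of these. The depth behind the members is unknown.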
